A study of Mus musculus with 4 samples.

Results

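Macrophages that carry RNA of the mannose receptor Mrc1 and the folate receptor Folr2 were taken from the ChAT-eGFP+ cells of mouse inguinal subcutaneous fat. A cell was a member when it held more than 200 and fewer than 5000 genes, less than 7.5% mitochondrial UMIs (unique molecular identifiers, each 1 counted mRNA molecule) and at least 1 UMI of each of C1qa, Lyz2, Mrc1 and Folr2. It also had to hold no UMI of Itgax, Trem2, Mki67, Cd3e or Ms4a1, to set aside inflammatory or lipid-associated macrophages, dividing cells, T cells and B cells. Cells of these kinds in which the gene was missed could still pass. Of 26654 deposited cells, 21249 passed the limits on genes and mitochondrial UMIs, and 547 of these were members. They made up most of the 837 cells with both C1qa and Lyz2.

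Resident macrophages of this kind sit along blood vessels and nerves in many tissues. They are known for clearing dying cells, taking up proteins, iron and lipid from their surroundings, and making growth factors. In fat they lie between adipocytes that release fatty acids when sympathetic nerves are activated by cold, and an adipose macrophage can take up and store part of that lipid.

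All mice were males of the ChATBAC-eGFP genotype, in which a bacterial artificial chromosome makes green fluorescent protein under the control of the choline acetyltransferase gene. They were 5 weeks old at the start, spent 3 weeks at 30 °C, which is thermoneutral for mice, and were then held for 4 h either at 30 °C or at 4 °C. Per the study's methods the mice bound for 4 °C first had 24 h at room temperature, a step without a counterpart at 30 °C, so that 4 h of cold and this step cannot be told apart. Each temperature had 2 libraries, each library pooled 4 mice, and live eGFP+ cells of the stromal vascular fraction were sorted before droplet capture. The sort selects cells by the reporter and not by Chat mRNA: Chat itself had 13 and 8 UMIs in the members at 30 °C and 25 and 16 at 4 °C, and its change was not called.

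The members numbered 93 and 107 at 30 °C and 264 and 83 at 4 °C, in the order of replicates 1 and 2. Their summed depth was 848243 and 967991 UMIs at 30 °C and 2094751 and 658744 at 4 °C, with medians per cell between 7640 and 8817 UMIs. The first library at 4 °C stood apart by its number of members. At 30 °C the members were 1.79% (95% Clopper-Pearson interval 1.45–2.19) and 1.99% (1.63–2.39) of the cells kept. At 4 °C they were 4.96% (4.39–5.57) and 1.55% (1.24–1.92), where the intervals cover counting error only. The means of 1.89% ± 0.137 and 3.25% ± 2.41 (SD, n = 2) were not told apart by an exact two-sided permutation test over libraries (p = 1), in which 2 against 2 libraries cannot give less than 0.333. Without replicate 1 at 4 °C the difference turned from 1.37 to -0.336 percentage points.

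Genes outside the selection bore on the label of resident macrophages. F13a1, a transglutaminase subunit on the list of resident markers, had a UMI in 98.9% and 98.1% of members at 30 °C and in 97.3% and 98.8% at 4 °C. Other markers of that list were seen in fewer members. Cd163 had a UMI in 81.7% and 72.9% against 74.2% and 77.1%, and Cd209f in 65.6% and 59.8% against 68.6% and 59.0%. Lyve1 had one in 90.3% and 82.2% against 31.8% and 44.6%. Timd4 had one in 48.4% and 41.1% against 37.1% and 30.1%, and Fcna in 51.6% and 34.6% against 30.3% and 30.1%. Levels are given in CPM, the UMI counts of a gene summed over the members of a library and expressed for 1000000 UMIs of those members. The 8 general macrophage markers, with C1qb the most abundant, were not used for selection. They summed to 11948 and 10975 CPM at 30 °C and 10034 and 10104 at 4 °C. In B cells and T cells of the same libraries, chosen to hold no C1qa or Lyz2, they summed to 12.7 to 18.9 and 9.60 to 15.8. In macrophages with an Itgax or Trem2 UMI (described below) they summed to 8823 and 10599 at 30 °C and 8108 and 8932 at 4 °C. This sum thus bears on the cells being macrophages and not on their being resident. The 12 resident markers, C1qa, Mrc1 and Folr2 of the selection among them, summed to 21919 and 19819 CPM at 30 °C and 17038 and 17433 at 4 °C. In the Itgax or Trem2 macrophages they summed to 11044 and 12810 at 30 °C and 8890 and 9662 at 4 °C. Part of this difference was set by the selection itself. Of the genes used for selection, C1qa had medians of 43 and 45 UMIs per cell at 30 °C and 34 and 39 at 4 °C, and Folr2 had medians of 9 and 5 at 30 °C and 6 and 7 at 4 °C. At the edge of the selection, 6, 12, 31 and 7 members had exactly 1 Folr2 UMI, and 15, 15, 38 and 12 cells failed on Folr2 alone.

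**Figure D1:**
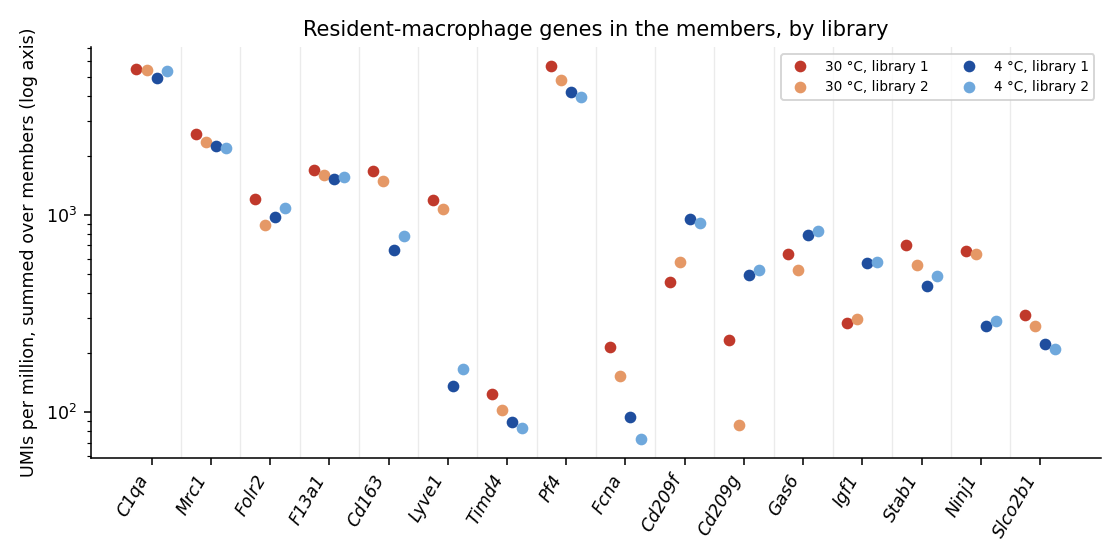
CPM (log axis) of 16 resident-macrophage genes, summed over the members of each library, 1 point a library. C1qa, Mrc1 and Folr2 chose the cells. F13a1 and Timd4 were lower in both libraries at 4 °C but were not called. Lyve1, Cd163, Ninj1, Fcna and Stab1 were lower in both libraries at 4 °C, and Cd209f, Cd209g, Gas6 and Igf1 were higher. Pf4 and Slco2b1 were also called lower. Of the 18 genes of the list that were tested, both cold libraries lay below both warm ones in 9 and above in 6.

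Markers of other cells were low in sum, but 49.5% and 49.5% of members at 30 °C and 41.7% and 59.0% at 4 °C held at least 1 UMI of any of 7 B or T cell genes, Cd79b and Trbc2 among them (a lymphocyte UMI below). B cell markers summed to 55.4 and 71.3 CPM at 30 °C and 81.2 and 137 at 4 °C (most abundant Cd79b, Ms4a1 at 0 by selection). T cell markers summed to 93.1 and 76.4 at 30 °C and 33.9 and 38.0 at 4 °C (most abundant Trbc2, Cd3e at 0 by selection). In T cells of the same libraries they summed to 5729 and 5756 at 30 °C. Several genes that fell in the members are also made by T cells. Adipocyte markers, led by Car3, summed to 64.8 and 63.0 at 30 °C and 38.2 and 48.6 at 4 °C, with Adipoq at 3 and 0 UMIs against 7 and 0. Stromal markers, led by Dcn, summed to 30.7 and 42.4 against 22.4 and 22.8, and innate lymphoid markers, led by Gata3, to 22.4 and 6.20 against 4.77 and 0. The sums of adipocyte, stromal and innate lymphoid markers were thus lower in both cold libraries, as were those of T cell markers. Neutrophil markers, led by Csf3r, summed to 15.3 and 10.3 at 30 °C and 23.4 and 21.3 at 4 °C, with Ly6g, Retnlg and S100a9 at 0. Dendritic cell markers, led by Zbtb46, summed to 15.3 and 13.4 against 32.9 and 30.4. Both of these sums were thus higher in both cold libraries. Among eosinophil markers Epx and Siglecf were at 0, and Prg2 was seen only in replicate 2 of each temperature. Markers of dividing cells, led by Stmn1 and with Mki67 at 0 by selection, summed to 66.0 and 84.7 at 30 °C and 65.9 and 39.5 at 4 °C. In the Itgax or Trem2 macrophages, also chosen without Mki67, they summed to 85.5 and 83.3 against 42.5 and 65.1. Plasma cell markers summed to 88.4 and 1680 at 30 °C and 51.1 and 78.9 at 4 °C. A single member of replicate 2 at 30 °C held 12515 immunoglobulin and Jchain UMIs, where no other member of that library held more than 25. That cell gave 1523 of the 1599 Jchain UMIs of its library. Across the 4 libraries 81 cell barcodes occurred more than once, none of them in 2 members, and Scrublet marked 3 members as doublets.

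UMIs were summed per library, and 7811 genes were tested with edgeR's quasi-likelihood test, adjusted by Benjamini-Hochberg over all of them at a threshold of 0.05. Of these, 732 were higher at 4 °C (9.37%) and 688 were lower (8.81%), 18.2% in all. The counts of calls in gene lists below are to be read against these shares. Both libraries of one temperature lay above both of the other in 4447 genes (56.9%), with both cold libraries above in 31.8% and below in 25.1%. DESeq2 called 625 genes, each also called by edgeR. Glucocorticoid targets and chemokines gave 37 of the 1420 calls: 2 of 20 glucocorticoid targets tested rose and 16 fell, and 11 of 26 chemokine ligands and receptors rose and 8 fell. The other 1383 calls, 719 higher and 664 lower, are the subject below. Both lists are of limited length (25 and 33 genes), so a call outside them can still be of a glucocorticoid target. Pf4, Ccl24, Per1 and Zfp36 belong to the chemokine or glucocorticoid lists but are also counted in other lists below. Values are given for replicates 1 and 2 in that order, and fold changes are those of edgeR. Because each value is a sum over cells, fewer cells with a transcript and less RNA per cell cannot be told apart from it alone.

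**Figure D2:**
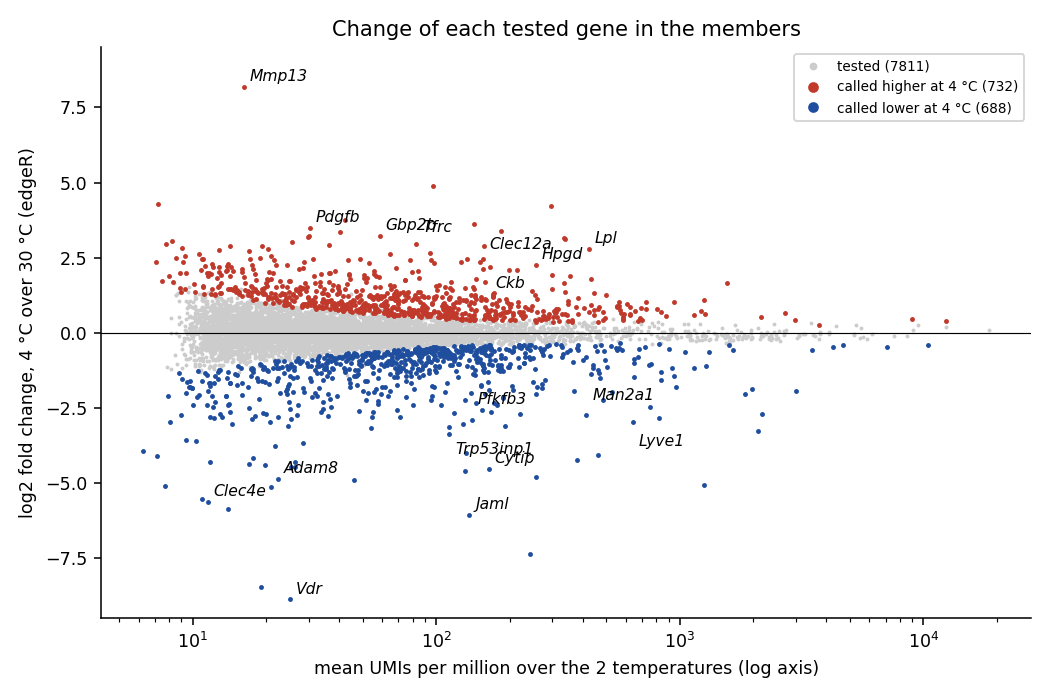
Log2 fold change (4 °C over 30 °C, edgeR) of 7811 genes in the members against their mean level in CPM (log axis). Genes called higher (732, red) and lower (688, blue) lie on either side of the genes not called (grey). Mmp13 and Vdr, each with no UMI at 1 temperature, have fitted changes that are no bound.

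Of 18 resident-macrophage genes tested, 4 rose and 7 fell, with a median log2 change of -0.28 against -0.00 over all genes. Without replicate 1 at 30 °C 6 rose and 6 fell, with a median of -0.09. Lyve1, the hyaluronan receptor of perivascular macrophages and lymphatic vessels (mm10, GENCODE M21, chr7:110850607-110863239, minus strand), fell most. Its level was 1192 and 1070 CPM at 30 °C and 136 and 166 at 4 °C, so that both cold libraries were far below both warm ones. The fall was 7.87-fold (log2 -2.98 ± 0.14 SE, edgeR adjusted p = 1.6e-09). With every cell reduced to 3000 UMIs, Lyve1 was seen in 80.2% and 73.7% of members at 30 °C and in 20.2% and 27.4% at 4 °C. Cd163, the scavenger receptor for haemoglobin bound to haptoglobin, stood at 1660 and 1487 CPM at 30 °C and at 663 and 782 at 4 °C, a fall of 1.17 on the log2 scale. At 3000 UMIs Cd163 was still seen in 64.5% and 68.5% of members at 4 °C, against 77.9% and 70.7% at 30 °C. Ninj1, which ruptures the plasma membrane of dying cells, fell by 1.25 on the log2 scale, and Fcna, a lectin that starts complement activation, by 1.11. Pf4 and Slco2b1 fell by less, by 0.41 and 0.47. The fall of Stab1, a clearance receptor, was not called without replicate 1 at 4 °C.

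Other resident genes moved the opposite way. Igf1, insulin-like growth factor 1, was at 283 and 298 CPM at 30 °C and at 571 and 580 at 4 °C, a rise of 0.94 ± 0.11 on the log2 scale. Cd209f, a C-type lectin, rose from 460 and 578 to 953 and 912. Cd209g rose by 1.65 on the log2 scale, and its 2 libraries at 30 °C were far apart at 233 and 85.7. Gas6, which bridges dying cells to their receptors, rose by 0.44. DESeq2 did not call Cd209g, Gas6 and Slco2b1, and gave 2 rises and 6 falls on this list. Timd4, the receptor for phosphatidylserine on long-lived macrophages, was at 124 and 102 CPM at 30 °C and 89.7 and 83.5 at 4 °C, and F13a1 was at 1698 and 1592 against 1520 and 1558. Neither of these was called.

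Lyve1 can split resident macrophages in 2 kinds, so the members were divided by its UMIs into 293 with and 254 without. Of 7105 genes, 8 changed differently with temperature in the 2 (0.113%). They were Jchain, Igkc, Igha, Cxcl9, Hip1, Ccl8, Rsad2 and Ifit2. Only 9 and 19 cells without Lyve1 came from 30 °C, and the 3 immunoglobulin genes were those of the single plasma-cell-marked member. Because Lyve1 itself fell, the split does not hold the same cells at both temperatures.

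Among the largest falls outside the lists of glucocorticoid targets and chemokines were those of surface and signalling genes. Jaml, an adhesion molecule that binds CXADR on epithelia and is used in leukocyte migration (chr9:45079183-45108534, plus strand), had 233 and 254 UMIs at 30 °C and 7 and 4 at 4 °C. This was 67.3-fold lower (log2 -6.07 ± 0.23 SE, edgeR adjusted p = 3.1e-10), and the share of members in which it was seen at 3000 UMIs went from 45.3% and 53.5% to 0.403% and 1.37%. T cells also make Jaml, at 81.2 and 71.9 CPM at 30 °C, a level under that of 275 and 262 in the members. Without the members that held a lymphocyte UMI, the log2 change of Jaml was -6.01. Vdr, the vitamin D receptor, had 46 and 45 UMIs at 30 °C and none at 4 °C, which is at least 46.0-fold lower if 3 counts are allowed over both cold libraries.

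Cytip, a binding partner of integrin regulators, went from 331 and 302 CPM to 15.3 and 10.6, a 23.1-fold fall. T cells held Cytip as well, and without members with a lymphocyte UMI its log2 change was -4.26. Ttc39c fell 30.2-fold, from 94.3 and 82.6 CPM at 30 °C, where T cells held 56.3 and 49.7. Adam8, a membrane protease of activated leukocytes, had 45 and 34 UMIs at 30 °C and 4 and 0 at 4 °C, and was at 53.1 and 35.1 CPM in the members and at 21.4 and 18.5 in T cells at 30 °C. Without members with a lymphocyte UMI the log2 changes of Ttc39c and Adam8 were -5.11 and -4.39. Clec4e (the lectin Mincle, a sensor of dead cells and mycobacterial glycolipid), Strip2 and Tgfb3 (transforming growth factor beta 3) each had at most 3 UMIs in all at 4 °C, against 41, 49 and 74 at 30 °C. Of the Clec4e UMIs at 30 °C, 12 of 23 and 9 of 18 lay in 1 cell of each library.

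Several enzymes were among the firmest falls. Man2a1, a Golgi mannosidase that trims N-glycans, was at 788 and 643 CPM at 30 °C and at 108 and 114 at 4 °C, 6.69-fold lower. Pfkfb3, which makes the activator of phosphofructokinase and so drives glycolysis, went from 235 and 253 to 31.5 and 39.5. Gpt2, a mitochondrial alanine aminotransferase, went from 301 and 197 to 6.21 and 22.8. Trp53inp1, a p53 target in autophagy and stress, fell 10.4-fold, and 1700017B05Rik, a gene of unknown role, fell 8.64-fold. T cells held Trp53inp1 at 196 and 203 CPM at 30 °C, against 211 and 200 in the members, and without members with a lymphocyte UMI its log2 change was -3.28. Both cold libraries were below both warm ones in these 5 genes, as the choice of named genes required.

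Of the rises outside those lists, that of Lpl, the lipase that frees fatty acids from triglyceride-rich lipoproteins, had the smallest p. Lpl had 75 and 115 UMIs at 30 °C and 1706 and 443 at 4 °C, or 88.4 and 119 CPM against 814 and 672. It rose 6.94-fold (log2 2.80 ± 0.16 SE, edgeR adjusted p = 1.4e-08) and was seen at 3000 UMIs in 20.9% and 25.3% of members at 30 °C and in 69.4% and 63.0% at 4 °C. Hpgd, which inactivates prostaglandins, followed the same course, from 74.3 and 97.1 CPM to 470 and 382, and from 12.8% and 19.2% of members to 71.4% and 69.9%. At 4 °C both genes were thus seen in most members of both libraries.

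Tfrc, the transferrin receptor that brings iron into the cell (chr16:32608920-32632794, plus strand), had 16 and 17 UMIs at 30 °C and 300 and 100 at 4 °C, a 7.76-fold rise in which the libraries of each temperature were close (18.9 and 17.6, then 143 and 152 CPM). Ckb, brain-type creatine kinase, rose 4.56-fold, and Clec12a, an inhibitory lectin for uric acid crystals, 4.38-fold. Evi2a, a small membrane protein, rose 4.30-fold. Samd4, an RNA-binding repressor of translation, had 5 and 5 UMIs at 30 °C against 159 and 54 at 4 °C, and Pdgfb, a growth factor for pericytes and fibroblasts, had 3 and 6 against 138 and 30. Frmd6, Gpr155 and Tlr1 each rose between 9.06- and 10.2-fold from under 9 CPM.

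Other large rises were those of few cells. Mmp13, collagenase 3, had no UMI at 30 °C and 66 and 22 at 4 °C, at least 19.3-fold higher if 3 counts are allowed over both warm libraries, and these UMIs came from 26 and 8 members. Mucl1 had 0 and 39 UMIs at 30 °C and 674 and 138 at 4 °C, but 667 of the 674 lay in 3 cells and all 138 in 1 cell, and DESeq2 did not call it. Gbp2b, a guanylate-binding protein, had 105 and 109 UMIs at 4 °C in 36 and 23 members, and its level in replicate 2 at 4 °C (166 CPM) was well over that in replicate 1 (50.1).

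Whether all members or some of them moved was described with the named genes themselves, 14 that fell and 13 that rose (Mucl1 left out), so that this count uses the genes that the comparison chose and is no test. At 3000 UMIs a cell, members at 30 °C held a median of 11 and 9 UMIs of the genes that fell and of 1 and 1 of the genes that rose. At 4 °C the medians were 1 and 1 for the falls and 7 and 6 for the rises. More UMIs of falls than of rises were found in 83 of 86 and 94 of 99 members at 30 °C, and more of rises than of falls in 233 of 248 and 69 of 73 members at 4 °C. By this count nearly all members of both cold libraries differed from the warm ones, and 7 and 2 members at 4 °C held more of the falls.

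**Figure D3:**
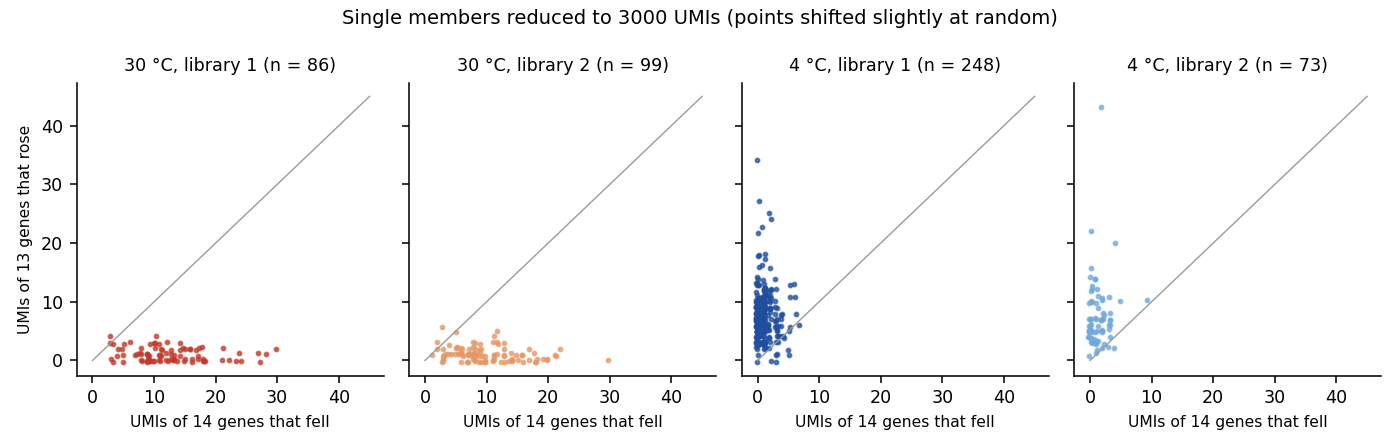
Each point is 1 member reduced to 3000 UMIs, by the UMIs of 14 genes that fell (x) and of 13 that rose (y) at 4 °C, the genes having been chosen on the same cells. Members at 30 °C lie along the x axis and members at 4 °C along the y axis, with little overlap; the line marks equal counts.

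Lipid handling genes went both ways, with 4 of 29 higher and 6 lower (median log2 change 0.06). Besides Lpl, the rises were those of Lipa, the lysosomal lipase (82.5 and 111 CPM against 240 and 254), and of Hmgcs1, an enzyme of cholesterol synthesis, from under 16 CPM, among others. Pnpla2, the lipase that opens stored triglyceride, went from 233 and 197 to 46.8 and 48.6 (log2 -2.23 ± 0.16 SE). Plin2, the coat protein of lipid droplets, went from 674 and 478 to 152 and 162. Fabp4, a fatty acid carrier, Angptl4, an inhibitor of lipoprotein lipase, Dgat1, which completes triglycerides, and Apoe also fell. The adipocyte markers given above moved the same way as these falls, and their part in them was not tested. DESeq2 did not call Hmgcs1 and Dgat1, and without replicate 1 at 30 °C 2 genes of the list rose and 5 fell. Of 9 genes typical of lipid-associated macrophages, 4 fell (Plin2, Fabp4, Lgals3 and Cd63) and Lpl rose; 2 of the 9 rose without replicate 2 at 4 °C.

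Iron genes gave 3 rises and 4 falls of 19 tested (median 0.14). Slc11a2, which carries iron out of endosomes, rose by 2.01 on the log2 scale from 7 and 5 UMIs, and Ncoa4, the receptor that delivers ferritin for breakdown, by 0.75. Together with Cd163, Hfe, which binds the transferrin receptor, fell from 279 and 253 CPM to 117 and 135. Slc11a1, the iron and manganese pump of phagosomes, and Hmox1, haem oxygenase, fell by 0.71 and 0.62 on the log2 scale. Tfrc, for transferrin-bound iron, and Cd163, for iron in haemoglobin, thus changed in opposite directions. DESeq2 did not call Slc11a2 and Ncoa4, and 5 genes of the list rose without either library at 30 °C.

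Of 10 Fc receptors and partners, 6 fell and 1 rose (median -0.48). Fcgr2b, the inhibitory receptor for IgG, was at 996 and 1038 CPM at 30 °C and 527 and 487 at 4 °C (log2 -1.05 ± 0.11 SE). Fcgr3 fell by 0.80 on the log2 scale, as did the kinase Lyn (by 0.82), the phosphatase Inpp5d (by 1.00), Fcgr4 (by 0.51) and Fcgrt (by 0.46). Fcgr1, the high-affinity receptor, rose from 64.8 and 55.8 to 148 and 128. Genes for engulfing dying cells gave 5 falls and 1 rise (Gas6) of 19, with a median of 0.10. Mertk, the receptor that Gas6 engages, was at 147 and 148 CPM at 30 °C and at 46.3 and 42.5 at 4 °C, 3.37-fold lower. Cd300lf, another phosphatidylserine receptor, had 26 and 12 UMIs against 1 and 0, and Cd300a, Stab1 and Axl fell by 0.77, 0.50 and 0.61. Fcgr4, Axl and Gas6 were not called by DESeq2.

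Scavenger receptors and lectins gave 7 rises and 3 falls of 20 (median 0.17). The rises were those of lectins of the Cd209 and Clec4a groups, of Clec12a and of the lipoprotein receptor Scarb1. DESeq2 called 4 rises and 2 falls on this list. Without replicate 1 at 4 °C 5 rose and 1 fell. Clec4a2 rose from 138 and 181 CPM to 394 and 325. Complement genes gave 1 rise (5.88%), of the receptor C3ar1, and 2 falls (11.8%), of C1qb and C5ar1, out of 17. These shares were near those of all genes tested. The complement median was -0.21, and -0.37 to -0.10 with any 1 library left out. C5ar1 was not called without either library at 4 °C. Without replicate 2 at 30 °C 7 complement genes and 4 lysosomal genes were called lower. Lysosomal genes gave 3 rises (12.5%) and 2 falls (8.33%) of 24 (median -0.05), shares close to those of all genes tested. Ctsc, the protease that activates granule enzymes, stood at 789 and 777 CPM at 30 °C and at 1836 and 1644 at 4 °C.

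Of the interferon-stimulated genes, 10 of 23 tested rose (43.5%) and none fell, and the median log2 change was 0.82. Gbp3 was at 20.0 and 18.6 CPM at 30 °C and at 64.0 and 98.7 at 4 °C. Gbp2 was at 50.7 and 54.8 against 104 and 161, and Gbp7 at 74.3 and 81.6 against 135 and 208. In all 3 genes the groups did not overlap, which held for 56.9% of all genes tested. Replicate 2 at 4 °C was the higher of the cold libraries in each of them. Oasl2 rose by 1.09 on the log2 scale, and Irf1, Ifih1, Zbp1, Ddx58 and Isg15 by 0.81 to 1.14. DESeq2 called 5 of the 10 genes, the last 5 named not among them. Leaving out replicate 1 at 30 °C gave 16 rises and leaving out replicate 2 gave 9 rises and 1 fall; leaving out replicate 1 or 2 at 4 °C gave 10 and 9 rises and no fall.

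The promoters of these genes were read for the letters to which interferon factors bind, because the genes moved together. RefSeq windows of 300 bases (GRCm38.p6, 250 before the start site to 50 after it) existed for 8 of the 10. The core of the interferon-stimulated response element, GAAANNGAAA on either strand, occurred in 6 of the 8 (75%), those of Ddx58, Gbp2, Gbp3, Gbp7, Ifih1 and Isg15, against 3.99% of all 27025 genes with a window. The list holds genes known for this element, and of the 17 list genes tested that had a window, called or not, 12 held it (70.6%), a share close to that of the called genes. It stood in 7.48% of the windows of all genes called higher and in 3.62% of those called lower. A matched string is no sign that a factor was bound. The last 120 bases before the start site are given for the 4 genes where the core lay within them, on the strand of the gene, with its matches, and those of the gamma-activated site TTCNNNGAA, in capitals.
Gbp7 (chr3:142530216-142530335, plus strand): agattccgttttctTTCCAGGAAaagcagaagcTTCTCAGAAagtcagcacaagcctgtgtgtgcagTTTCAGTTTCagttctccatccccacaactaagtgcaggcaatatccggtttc
Gbp3 (chr3:142559924-142560043, plus strand): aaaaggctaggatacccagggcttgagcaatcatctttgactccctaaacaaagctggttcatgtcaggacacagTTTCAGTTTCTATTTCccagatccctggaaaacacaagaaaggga
Gbp2 (chr3:142620543-142620662, plus strand): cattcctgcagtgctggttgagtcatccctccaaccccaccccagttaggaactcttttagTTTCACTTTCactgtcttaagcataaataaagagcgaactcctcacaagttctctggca
Isg15 (chr4:156200819-156200938, minus strand): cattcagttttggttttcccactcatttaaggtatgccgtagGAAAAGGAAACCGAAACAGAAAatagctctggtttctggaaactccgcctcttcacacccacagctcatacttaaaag

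Genes of MHC class II presentation gave 3 rises and no fall of 11 tested (median 0.24, and 0.15 to 0.50 with any 1 library left out). Ciita, the coactivator that switches these genes on, was at 21.2 and 36.2 CPM at 30 °C and at 164 and 159 at 4 °C (log2 2.43 ± 0.21 SE). H2-DMb1 and H2-DMa, which load peptide, rose by 0.80 and 0.62. The antigen-presenting chains tested were not called. Of these, H2-Ab1 was at 8284 and 8744 CPM at 30 °C and at 9822 and 10995 at 4 °C (log2 0.24). Both cold libraries lay above both warm ones in 9 of the 11 genes of the list and below in 1, against 31.8% and 25.1% of all genes tested. The sums of B cell and dendritic cell markers given above were also higher in both cold libraries. With members holding a lymphocyte UMI left out, 4 of 9 genes of the list rose and none fell (median 0.17). The part of dendritic cell RNA in these rises was not tested. Without replicate 2 at 30 °C 6 genes of the list were called higher, and without replicate 1 at 4 °C 5.

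Inflammatory and sensing genes gave 8 rises and 6 falls of 29 (median 0.46). Vcam1, an adhesion molecule, went from 1401 and 1462 CPM to 153 and 273, and Cd14, the coreceptor for lipopolysaccharide, from 1366 and 1379 to 489 and 549. The Toll-like receptors parted by member: Tlr1, Tlr2 and Tlr4 rose by 3.18, 1.08 and 0.66 on the log2 scale, and Tlr5, Tlr7 and Tlr13 fell by 2.01, 1.22 and 1.50. Nfkbiz and Nfkbie, which feed back on NF-kB, and Icam1 rose. DESeq2 called 4 rises and 4 falls here, without Tlr4, Tlr13 and Icam1. Immediate early genes gave 9 rises and 2 falls of 20 (median 0.47): Atf3 rose from 74.3 and 164 CPM to 453 and 498, and Jun, Junb, Egr1, Ier3 and Ier5 rose by 0.60 to 1.13 on the log2 scale. DESeq2 called 6 rises and 1 fall of this list, and the median was 0.24 without replicate 1 at 30 °C and 0.82, with 13 rises, without replicate 2.

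Among factors of the macrophage lineage, 8 of 21 rose and 4 fell (median 0.35). Cebpb, a driver of inflammatory and myeloid genes, went from 1441 and 1527 CPM to 421 and 465 (log2 -1.80 ± 0.12 SE). Zeb2 and Mef2c, further factors of myeloid identity, rose by 1.02 and 0.98 on the log2 scale, Zeb2 from 426 and 510 to 971 and 991. DESeq2 called 4 rises and 4 falls on this list. Irf4, a factor of the interleukin-4 response, rose from 17 and 16 UMIs to 165 and 40. Runx3 had 30 and 27 UMIs at 30 °C and 1 and 3 at 4 °C; T cells make it as well, and the part of T cell RNA in its fall was not tested. Of 12 genes of the interleukin-4 program, 4 rose (Irf4, Ccl24, Il13ra1 and Socs1) and Socs2 fell, from 10 and 18 UMIs to 1 and 0. Of these, Il13ra1 and Socs1 were not called by DESeq2. Without the Folr2 requirement 2 of the program's genes rose, the median went from 0.33 to -0.02, and Ccl24 turned to -0.30 and was not called.

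Signalling through cAMP, the second messenger of adrenergic and prostaglandin receptors, gave 6 falls and 1 rise (Calcrl) of 23. The median of 0.20 was not stable: it lay between -0.09 and 0.07 with any 1 library left out and at -0.34 without members with a lymphocyte UMI, and 3 genes rose without replicate 2 at 30 °C and 2 when another library was left out. Rgs1, which damps G protein signals, was at 256 and 322 CPM at 30 °C and at 52.0 and 39.5 at 4 °C. The phosphodiesterases Pde3b and Pde4b fell by 2.10 and 1.67 on the log2 scale, and Sik1, Crem and the prostaglandin receptor Ptger2 by 1.98, 2.11 and 2.79. Receptors for nucleotides, lipids and chemoattractants gave 8 rises and 5 falls of 18 (median 0.32). Cysltr1, for leukotrienes, Gpr183, for oxysterols, and S1pr2, for sphingosine 1-phosphate, rose by 2.04, 2.94 and 2.44 on the log2 scale, and P2rx4 and P2rx7, ATP-gated channels, fell by 0.82 and 0.98. Of 7 genes tested from the list of nerve-associated macrophages, 2 rose and Cd163 fell (median 0.52), with 3 rises when replicate 2 at 30 °C was left out and 4 when replicate 2 at 4 °C was. St3gal6, a sialyltransferase, had 16 and 29 UMIs at 30 °C against 342 and 108 at 4 °C, and Maoa, which breaks down noradrenaline, rose by 1.29. Maoa and Calcrl were not called by DESeq2, and without either library at 4 °C 3 of the receptors fell.

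Growth factors gave 5 rises (Pdgfb, Igf1, Tgfb1, Bmp2 and Metrnl) and 3 falls (Tgfb3, Osm and Gdf15) of 15, with a median of 0.17. Tgfb1 and Tgfb3, of the same family, moved in opposite ways: Tgfb1 was at 163 and 177 CPM at 30 °C and at 273 and 290 at 4 °C. Matrix genes gave 4 rises (Mmp13, Plau, Sdc3 and Mmp9) and 7 falls (Sdc4, Adam8, Adam9, Mmp19, Itga9, Plaur and Tgfbi) of 19, with a median of -0.14. Plau, urokinase, had 5 and 1 UMIs at 30 °C and 60 and 14 at 4 °C, and its receptor Plaur had 12 and 33 against 10 and 0. Not called by DESeq2 were Metrnl, Gdf15, Plaur, Itga9, Mmp9 and Tgfbi, and without replicate 1 at 4 °C 2 matrix genes rose.

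Of the lists of energy metabolism and stress, those of FOXO, stress response and clock genes had a share of falls over the background, and those of oxidative phosphorylation, glycolysis and heat shock lay closer to it. Ucp2, an uncoupling protein of the inner mitochondrial membrane, went from 3205 and 2944 CPM to 796 and 946 (log2 -1.87 ± 0.11 SE), but 22 of 25 genes of oxidative phosphorylation and fatty acid oxidation were not called, and DESeq2 called 1 of the 3 falls. Glycolysis and hypoxia genes gave 1 rise and 3 falls of 24 (1 fall by DESeq2), the fall of Pfkfb3 being the largest, and the rise, of Hk2, was not called by DESeq2 or without replicate 2 at 30 °C or either library at 4 °C. Of 20 FOXO and insulin genes, 6 fell and none rose (8 and 3 without replicate 2 at 30 °C, 4 and 1 when replicate 1 at 4 °C was left out), Pik3ip1, an inhibitor of phosphoinositide 3-kinase, going from 46 and 45 UMIs to 6 and 1. Il7r, also on that list and also a T cell gene, had 52 and 19 UMIs against 6 and 2, with 48 of the 52 and 15 of the 19 in 3 cells of each library; innate lymphoid and T cell markers moved the same way, and their part in this fall was not tested. Of 13 genes of the integrated stress response 4 fell, Sesn2 the most (log2 -2.75); DESeq2 called 2 of them, without Nupr1 and Herpud1. Of 14 heat shock and cold-inducible genes only Cirbp and Rbm3, known for their induction by cold in culture, were called, both lower by 0.80 and 0.51. Rbm3 was not called without either library at 4 °C, and the calls on this list also depended on which library at 30 °C was used. Clock genes gave 4 falls and 1 rise of 12 (median -0.54), with Nfil3 at -2.63 and the circadian repressor Ciart at -3.92 on the log2 scale. The rise, of Dbp, was not called by DESeq2 or with any 1 library left out. The other falls were those of Per1, also a glucocorticoid target, and of Rora. Of the Rora UMIs at 30 °C, 38 of 54 and 19 of 42 lay in 3 cells of each library. Innate lymphoid markers moved the same way, and their part in the fall of Rora was not tested. Cell cycle genes gave 2 rises (13.3%) and 1 fall (6.67%) of 15 (median 0.43), shares near those of all genes tested. Ccnd1, cyclin D1, was at 69.6 and 87.8 CPM against 323 and 381, and DESeq2 called 1 of the rises. The cell cycle median was 0.17 and 0.27 without replicate 1 or 2 at 30 °C and 0.16 without replicate 1 at 4 °C. Of mRNA decay factors, 1 of 13 rose (7.69%) and 2 fell (15.4%), shares not far from those of all genes tested. DESeq2 called neither fall, and the counts changed when replicate 2 at 30 °C was left out. Chka, choline kinase, was the 1 call among the 3 cholinergic genes tested, at 90.8 and 87.8 CPM against 26.3 and 16.7.

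**Figure D4:**
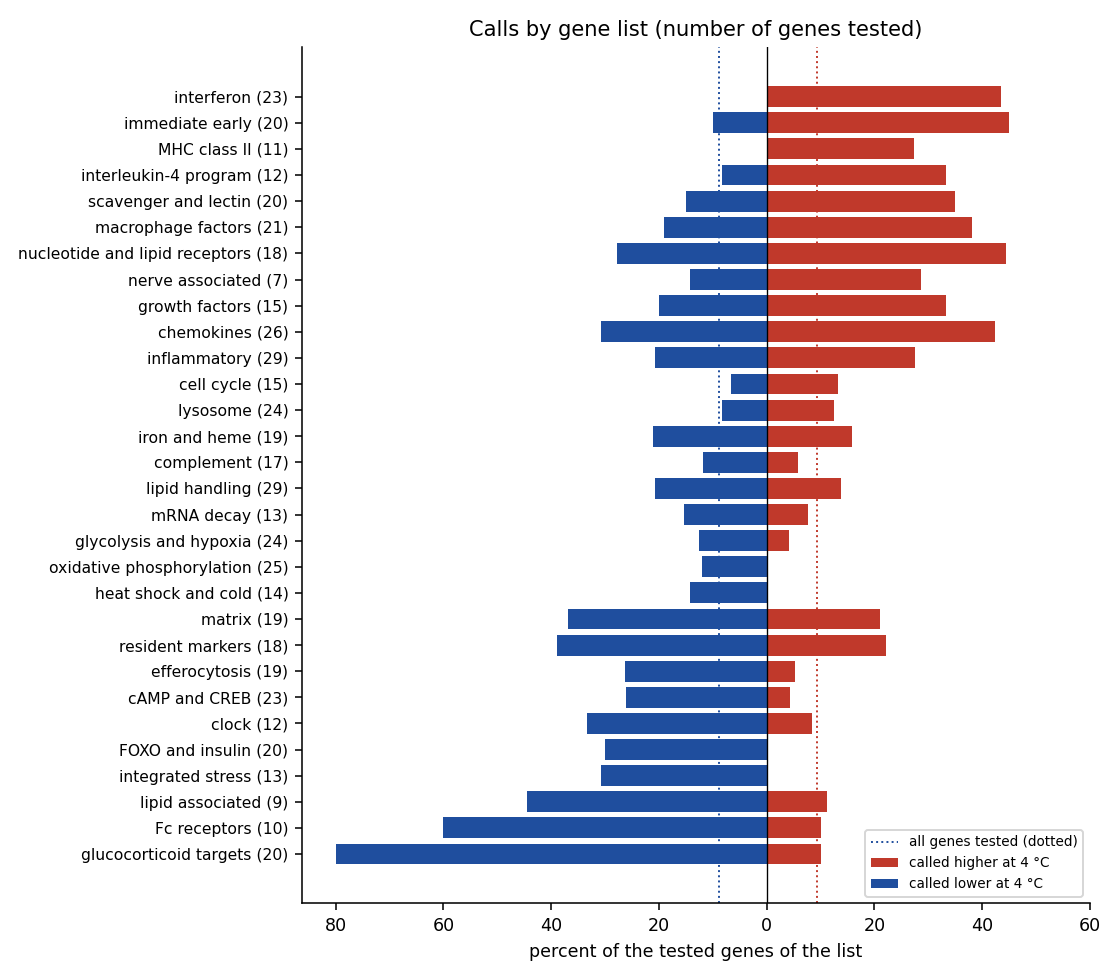
Percent of the tested genes of each list (number in brackets, lists with at least 5 genes tested) called higher (right) or lower (left) at 4 °C in the members. Dotted lines mark the 9.37% and 8.81% of all genes tested. Interferon genes stand at 43.5% higher with none lower, and 6 of 10 Fc receptor genes were lower.

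The chemokine receptor Ccr2, which marks cells lately derived from monocytes, rose with these genes and is given here because it bears on which cells the members are. It had 15 and 38 UMIs at 30 °C and 1228 and 355 at 4 °C, in 8.60% and 15.9% of members against 34.1% and 44.6%. Of the other monocyte markers, Ly6c2 had 1 and 0 UMIs against 2 and 2, Ace 0 and 1 against 1 and 0, Treml4 had none, and Plac8 was lower at 4 °C. At 3000 UMIs, Lyve1 was seen in 17 of 81 members with Ccr2 and 36 of 167 without it in replicate 1 at 4 °C, and in 6 of 29 and 13 of 44 in replicate 2. Lpl was seen in 66.7% and 67.7% of those with and without Ccr2 in replicate 1, and in 69.0% and 56.8% in replicate 2. Cold members with and without Ccr2 thus both had little Lyve1 and much Lpl. Other resident genes were seen in fewer of the members with Ccr2 in both cold libraries: Cd209f in 51.9% against 62.9% and 44.8% against 56.8%, Timd4 in 16.0% against 21.6% and 10.3% against 20.5%, and Fcna in 17.3% against 21.0% and 6.90% against 20.5%. Cd163 was seen in 58.0% against 66.5% and 69.0% against 70.5%, and F13a1 in 84.0% against 94.0% and 96.6% against 95.5%. These differences between cells of the same library were not tested.

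To see which changes other cells shared, the change was compared with that of 184 macrophages holding C1qa, Lyz2 and either Itgax or Trem2 but no Mki67, Cd3e or Ms4a1, 7301 B cells and 4728 T cells of the same libraries, with the difference of the changes tested. Against the Itgax or Trem2 macrophages, 26 of 7963 genes differed (0.327%). On their own, 5.06% of 5713 genes changed in those macrophages, 10.2% of 11533 in B cells and 5.97% of 11169 in T cells. Only 23 and 35 of those macrophages came from 30 °C, and 3 to 10 genes differed when 1 library was left out. Lpl was the firmest outside the chemokines: in those macrophages it was at 1253 and 1288 CPM at 30 °C and at 3075 and 2827 at 4 °C, so it was higher than in the members at both temperatures and rose by less (difference 1.62 ± 0.18 SE on the log2 scale, edgeR adjusted p = 3.9e-05). The fall of Adam8 was larger in the members by 3.31, that of Rgs1 by 1.58, that of Cebpb by 1.12, that of Ucp2 by 1.08 and that of Plin2 by 0.95. Id2, an inhibitor of transcription factors chosen here after its values were seen, fell in the members (log2 -1.80) and was at 116 and 153 against 171 and 178 CPM in the others. For Lyve1, Jaml, Man2a1, Tfrc, Ciita and Vcam1 no difference was called, with fitted differences of -0.53, -2.22, -0.73, 1.76, 0.72 and 0.19, which does not show that they changed alike.

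B cells held Cd79a and Ms4a1, and T cells Cd3e and Cd3d, with no C1qa, Lyz2 or Mki67 and no marker of the other kind. Against B cells 1046 of 11859 genes differed (8.82%), and against T cells 907 of 11631 (7.8%). Of the 1420 genes called in the members, 583 (41.1%) changed further in the same direction than in both B cells and T cells, 269 of them rises and 314 falls. The 1420 genes were chosen by their change in the same member sums, which favours a larger change there, so this share is no test. Tfrc rose by 2.76 more than in B cells and 2.62 more than in T cells, where it was between 11.3 and 14.1 CPM in B cells and between 17.6 and 25.04 CPM in T cells. Man2a1 was at 35.6 to 42.1 CPM in B cells and 58.1 to 65.7 in T cells without a call. The rise of Gbp3, an interferon gene, was larger in the members by 2.16 and 1.55 and that of Ciita by 2.59 and 3.35.

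**Figure D5:**
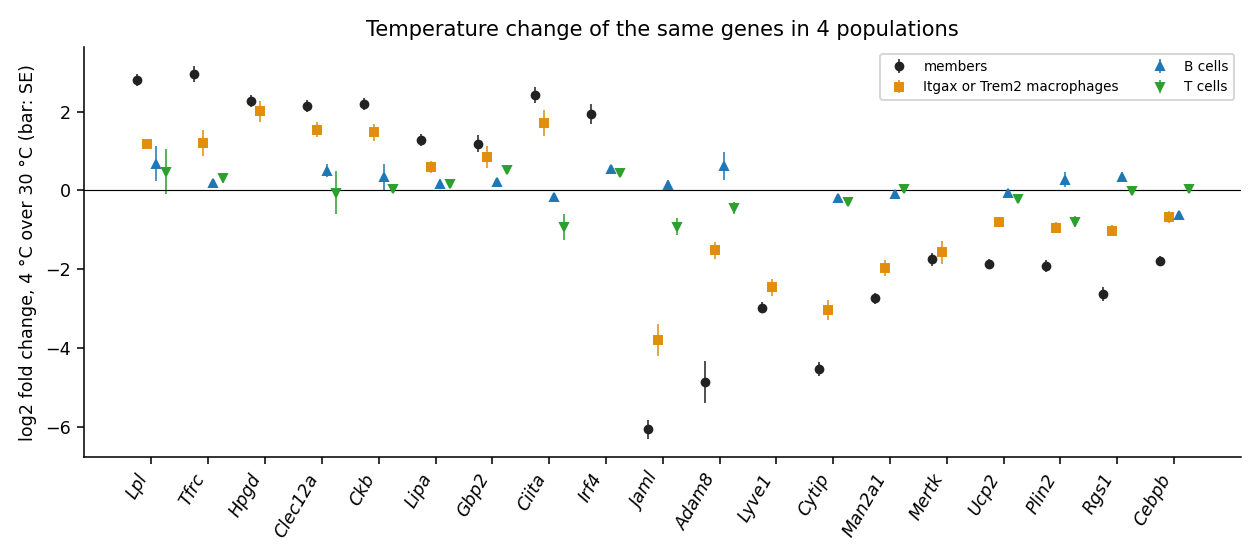
Log2 fold change (4 °C over 30 °C, bars SE) of 19 genes in the members, in macrophages with an Itgax or Trem2 UMI, in B cells and in T cells; a missing point was not tested in that population. Both macrophage sets share the sign of change in each gene tested in both, and B cells and T cells lie within 1 log2 unit of 0.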

How the data were processed

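Inguinal fat of ChATBAC-eGFP mice was digested, live eGFP+ cells were sorted, and single-cell 3′ libraries were sequenced. The deposited values were whole-number UMI counts for 31053 genes, made by the authors with Cell Ranger on mm10 (GRCm38); the matrix headers give version 3.0.0 and the submitters' processing notes 3.1.0, with STAR and Seurat 4.2.0 also named there. The exact alignment settings are not given in the sources used here. The 4 matrices held 6883 and 6881 cells at 30 °C and 6272 and 6618 at 4 °C, with totals of 76058112 to 84468931 UMIs. The limits on genes and mitochondrial UMIs given above left 5190 to 5388 cells a library, and doublets were marked with Scrublet in scanpy 1.11.5 but left in.

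UMIs of the members were summed per library, genes with low sums were removed with edgeR's filter, and 7811 of 14029 genes were tested with edgeR 4.0.16 (quasi-likelihood, TMM, R 4.3.3) at an adjusted p of 0.05. The 9 genes of the selection were not tested. Differences between populations were interaction terms in the same kind of fit. Libraries pool 4 mice each and number 2 a temperature, so p-values measure the spread between these libraries. Scripts were tested on simulated data. Members, gene lists and tests were chosen with earlier results of these data known. Named were genes with at least 40 UMIs whose libraries did not overlap, namely the 8 largest rises and falls and the next 6 of each by p, and up to 4 genes by p from each of 31 lists; further list members were named after their values were seen, and some list genes are not reported here. Sequences are from RefSeq (GRCm38.p6). Alternatives were DESeq2 1.42.0, RLE factors, no filter on low counts, each library left out, a replicate block, other limits and requirements on cells, doublets left out, members with a lymphocyte UMI left out and cells reduced to 3000 UMIs. Leaving out the member rich in immunoglobulin and scaling by library totals without TMM were chosen after the data were seen.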

Additional observations from a re-analysis of the deposited data

Results flagged for a closer look

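The temperature change of several genes reported here differed between the members and the macrophages with an Itgax or Trem2 UMI, by the interaction test in edgeR. Lpl (by 1.62 on the log2 scale, members minus the others) and the chemokine receptor Ccr2 (2.79) changed more upward in the members. Adam8 (-3.31), Cxcr4 (-2.14), Id2 (-2.11), Rgs1 (-1.58), Cebpb (-1.12), Ucp2 (-1.08), Plin2 (-0.95) and Ccl6 (-0.76) changed more downward in them. Jchain (-3.26) and Igha (-3.96) also differed; 1523 of the 1599 Jchain UMIs of replicate 2 at 30 °C lay in the single member rich in immunoglobulin, without which the log2 change of Jchain in the members was -0.67 in place of -4.07. The comparison set held 23 and 35 cells at 30 °C.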

How the results depend on the processing

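Against 1420 calls in the members (732 higher, 688 lower), DESeq2 made 625 (288 and 337), the fit without members holding a lymphocyte UMI 844 of 5507 genes tested (431 and 413), and that of cells reduced to 3000 UMIs 736 of 4507 (369 and 367); both of the last fits hold fewer UMIs and test fewer genes, and the cause of the DESeq2 difference was not tested. Leaving out 1 library gave 1050 to 1408 calls. RLE factors, no filter on low counts, other limits on cells, either receptor not required, doublets out, the immunoglobulin-rich member out and no TMM gave 1397 to 1661. The difference from Itgax or Trem2 macrophages was called in 26 genes, 71 without a filter, 12 without members holding a lymphocyte UMI and 3 to 10 with 1 library left out. That from B cells went from 1046 to 515 without members holding a lymphocyte UMI and to 608 to 789 with 1 library left out, and that from T cells from 907 to 491 and to 265 to 772 (608 and 265 without replicate 1 at 4 °C). The split by Lyve1 gave 8 genes, and 4 to 19 with 1 library left out. The difference in the share of members, 1.37 points, ranged from -0.336 to 3.07, turning sign without replicate 1 at 4 °C. Of single genes, Ccl24 turned to -0.30 (not called) without the Folr2 requirement and Slc44a1, not called, to -0.040 at 3000 UMIs. Chat, not called, ranged from -0.017 to 1.01 with 1 library left out, and was at -0.0074 without replicate 2 at 30 °C.

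The labels do not say whether the replicate numbers pair the libraries. Over 7815 genes the replicate difference at 30 °C and that at 4 °C had r = 0.00226. A single correlation of this kind cannot show that no batch was shared. The fit with a replicate block made 1228 calls. Of 137 genes followed, it lost the calls of Herpud1, Hk2 and Pdcd4, and DESeq2 lost 17. At 3000 UMIs 11 of 118 were lost, Stab1, Slc11a1, Oasl2 and Cirbp among them. The first library at 4 °C holds 2094751 of the members' UMIs and the second 658744, so that the floor of 3 counts is 1.43 and 4.55 CPM there. Of the gene list medians given, those near 0 turned sign with 1 library left out: engulfment genes to -0.04 without replicate 1 at 4 °C, lipid genes to -0.01 without replicate 2 at 30 °C and lysosomal genes to 0.04 without replicate 1 at 30 °C, beside the cAMP genes. Without members holding a lymphocyte UMI, 10 growth factors in place of 15 were tested and gave 3 rises and no fall, and 14 matrix genes in place of 19 gave 1 rise and 4 falls.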

Other observations

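Timd4, which marks long-lived macrophages, was compared with Lyve1 and Lpl cell by cell at 3000 UMIs. At 4 °C Lyve1 was seen in 32.7% of the 49 members with a Timd4 UMI and 18.6% of those without in replicate 1, and in 41.7% of 12 and 23.0% in replicate 2. At 30 °C the shares were 84.6% and 75% in replicate 1, and 82.6% and 69.7% in replicate 2. Lpl at 4 °C was seen in 63.3% with and 68.3% without Timd4 in replicate 1, and in 75% and 59.0% in replicate 2. In all 4 libraries Lyve1 was seen more often beside Timd4, while Lpl had no such order; the differences were not tested, and the pair was chosen after the values were seen.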
